A study of Mus musculus with 8 samples.

Results

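The microRNA (miRNA) gene Mir378a gives rise to a pair of mature miRNAs, miR-378a-3p and miR-378a-5p, which are cut from opposite arms of the same short hairpin. They are described here in mouse hearts after a surgical infarction and after a sham operation. The members were the probe sets MIMAT0003151_st, for the 3p arm, and MIMAT0000742_st, for the 5p arm. They were taken by listed identifiers, with no cutoff on their values. They are 2 of the 1908 mature miRNA probe sets in a table of 3222. The hearts came from male C57/BL6 mice, 8 weeks of age by their labels, collected 21 days after surgery. In the infarction (MI) group, the left anterior descending coronary artery had been ligated, and the control group had undergone sham surgery. Each group held 4 hearts with 1 Affymetrix miRNA 4.0 array per heart, numbered 1 to 4 in the sham group and 1, 4, 5 and 7 in the MI group. Titles in both groups carry the suffix nc, which the labels do not explain. No genetic change or drug is named for either group.

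A mature miRNA guides the silencing complex to messenger RNAs that pair with it and lowers their output. In the RefSeq gene table, Mir378a lies inside Ppargc1b, the gene of PGC-1beta, a coactivator that raises mitochondrial content and the oxidation of fatty acids, so that the hairpin can be made from the host gene's transcript. The arms have different seeds and therefore different targets. In mouse work, miR-378a-3p has been linked to Crat, which encodes the carnitine acetyltransferase of mitochondria, and miR-378a-5p to Med13, a subunit of the Mediator complex. In rodent heart muscle cells the 3p arm is known to repress the receptor for insulin-like growth factor 1, and it is regarded as a brake on hypertrophic growth. In human breast cancer cells the 5p arm represses the nuclear receptor ERR-gamma and GABPA, both regulators of oxidative metabolism. The messenger RNAs of these targets and of Ppargc1b were not measured on these arrays.

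The values are log2 intensities, on which 1 unit is a doubling of the signal. Both arms read far above the spike-in controls that lay near the floor of the scale, of which 17 reached at most 2.06. Levels of the arms are not set against each other, because probe sets differ in how strongly they bind and light up.

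Both arms measured lower on average in the infarcted hearts, by 21.1% for the 3p arm and 28.0% for the 5p arm, but neither difference passed the test over all mature probe sets. The lower averages came mainly from MI hearts 4 and 7. MI hearts 1 and 5 lay close to the lowest sham heart in both arms.

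For miR-378a-3p (MIMAT0003151_st), the sham hearts 1, 2, 3 and 4 read 13.53, 13.82, 13.72 and 13.78 log2 units. The MI hearts 1, 4, 5 and 7 read 13.60, 13.06, 13.58 and 13.25. MI hearts 4 and 7 were below every sham heart, whereas MI hearts 1 and 5 were above sham heart 1, so the groups overlapped. Sham hearts averaged 13.71 ± 0.13 (SD, n = 4), compared with 13.37 ± 0.26 (SD, n = 4) after infarction. The fitted difference was -0.34 log2 units (standard error 0.14), or 0.789-fold (limma, unadjusted p = 0.0417, Benjamini-Hochberg adjusted p = 0.719). Its 95% interval, taken for this probe set alone, ran from 0.629-fold to 0.989-fold. Permuting the group labels over all 70 assignments of the arrays, a two-sided exact test, gave p = 0.0857.

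For miR-378a-5p (MIMAT0000742_st), the sham hearts 1, 2, 3 and 4 read 10.48, 10.64, 10.73 and 10.79 log2 units. The MI hearts 1, 4, 5 and 7 read 10.44, 9.87, 10.44 and 9.998. Every MI heart was below every sham heart, although MI hearts 1 and 5 missed the value of sham heart 1 by far less than the spread within either group. Sham hearts averaged 10.66 ± 0.13 (SD, n = 4) and MI hearts 10.19 ± 0.29 (SD, n = 4). This amounts to -0.47 log2 units (standard error 0.15), or 0.720-fold (limma, unadjusted p = 0.0151, adjusted p = 0.520). The 95% interval for this probe set alone ran from 0.563-fold to 0.921-fold. The exact permutation test gave p = 0.0286, the smallest that 4 hearts against 4 allow, and this value is not adjusted for the number of probe sets. In bulk hearts, a smaller share of the cells that hold a miRNA and less of that miRNA per cell cannot be told apart.

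**Figure D1:**
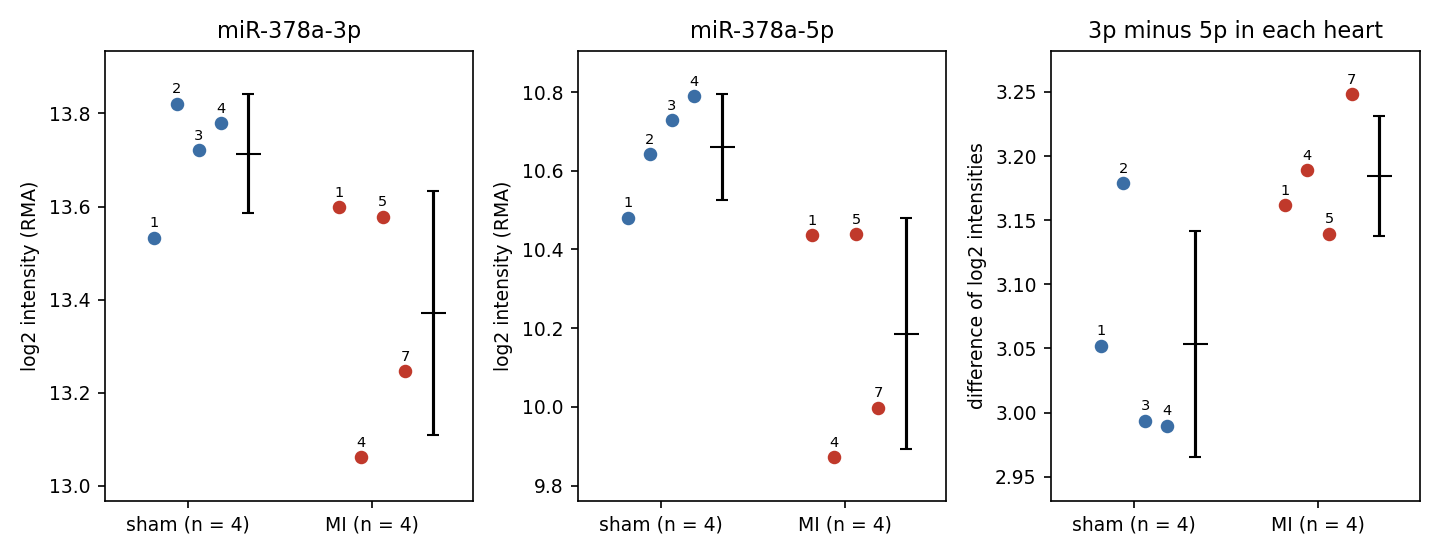
Values of miR-378a-3p (left) and miR-378a-5p (middle) in log2 intensity, and the difference of the arms within each heart (right), for sham hearts (blue) and MI hearts (red). Each point is 1 heart with its number, and the bar is the mean ± SD of 4 hearts. MI hearts 4 and 7 are the lowest of the 8 in both arms, and the vertical axes do not start at 0.

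These differences stand against a general pattern of the table. Past an adjusted p of 0.05, 0% of the 1908 mature probe sets were lower in MI hearts and 0.524% were higher (limma), and neither arm was called. The same fit without moderation of the variances also called 0 lower. At an unadjusted p under 0.05, 3.2% of all mature probe sets were lower in MI hearts, and both arms were among these 61. Among the 271 brighter ones, whose mean over the hearts was at least 5, a level chosen with earlier results known, the share was 11.4%. Groups that did not overlap with MI lower, as seen in the 5p arm, occurred in 1.26% of mature probe sets and in 4 of those 271, or 1.48%.

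Differences of single bright probe sets were more often below 0 than above it. The median difference of the 271 was -0.11 log2 units, with quartiles of -0.35 and 0.12, while the median of all 1908 was -0.0039. The median level of the 271 on each array was not lower in the MI group. It ran from 7.996 to 8.12 in sham hearts and from 8.05 to 8.15 in MI hearts. The median over the brightest 25% of mature probe sets reached lower in MI hearts, from 5.45 to 5.93, against 5.66 to 6.02 in sham hearts. Relative to the median of the bright probe sets, the 3p arm differed by -0.24 and the 5p arm by -0.37. A difference at least as low as that of the 3p arm was found in 72 of the 271, or 26.6%, counting the arm itself. For the 5p arm the count was 39, or 14.4%.

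**Figure D2:**
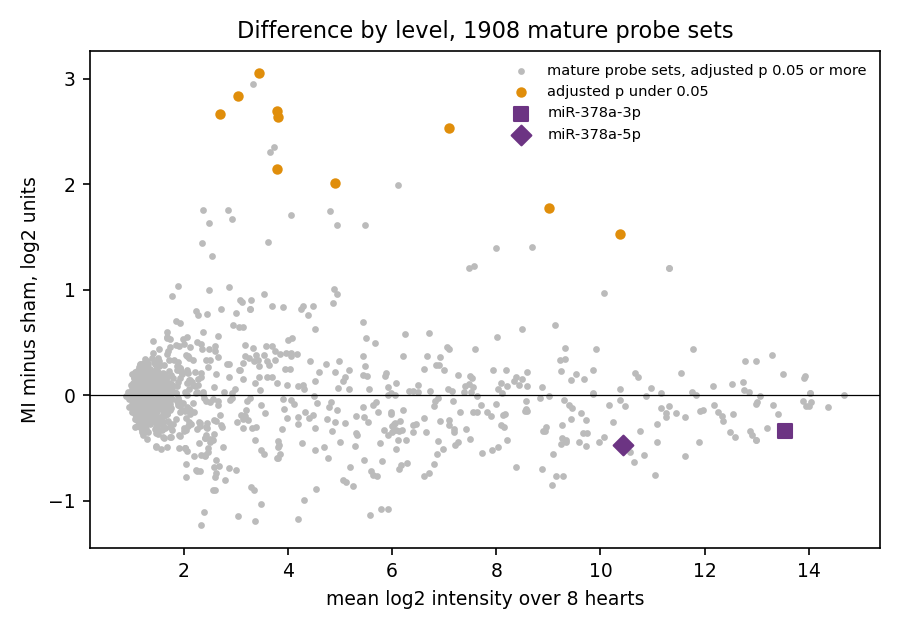
Difference between MI and sham hearts in log2 units against the mean log2 intensity over 8 hearts, for the 1908 mature probe sets. Orange points passed an adjusted p of 0.05 and all lie above 0. The square (miR-378a-3p, -0.34) and the diamond (miR-378a-5p, -0.47) lie within the cloud of bright probe sets that read somewhat lower in MI hearts.

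The scaling between arrays mattered to the overlap of the groups. When each array was centred on its own median over the brightest 25% of mature probe sets, which moved the median difference of all mature probe sets from -0.0039 to 0.11, the 3p arm differed by -0.23 and the 5p arm by -0.36. Then 3 of 4 MI hearts lay below every sham heart in the 5p arm (exact permutation test, p = 0.171), and 2 of 4 in the 3p arm (exact permutation test, p = 0.343). The highest 3p reading was then in an MI heart, at 13.91 against a sham maximum of 13.90. Quantile normalization gave -0.26 and -0.38, again with 3 of 4 MI hearts below every sham heart in the 5p arm (exact permutation test, p = 0.0571) and 2 of 4 in the 3p arm (exact permutation test, p = 0.229). The direction of the mean difference held for both arms under both scalings, and the separation of the groups in the 5p arm did not.

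**Figure D3:**
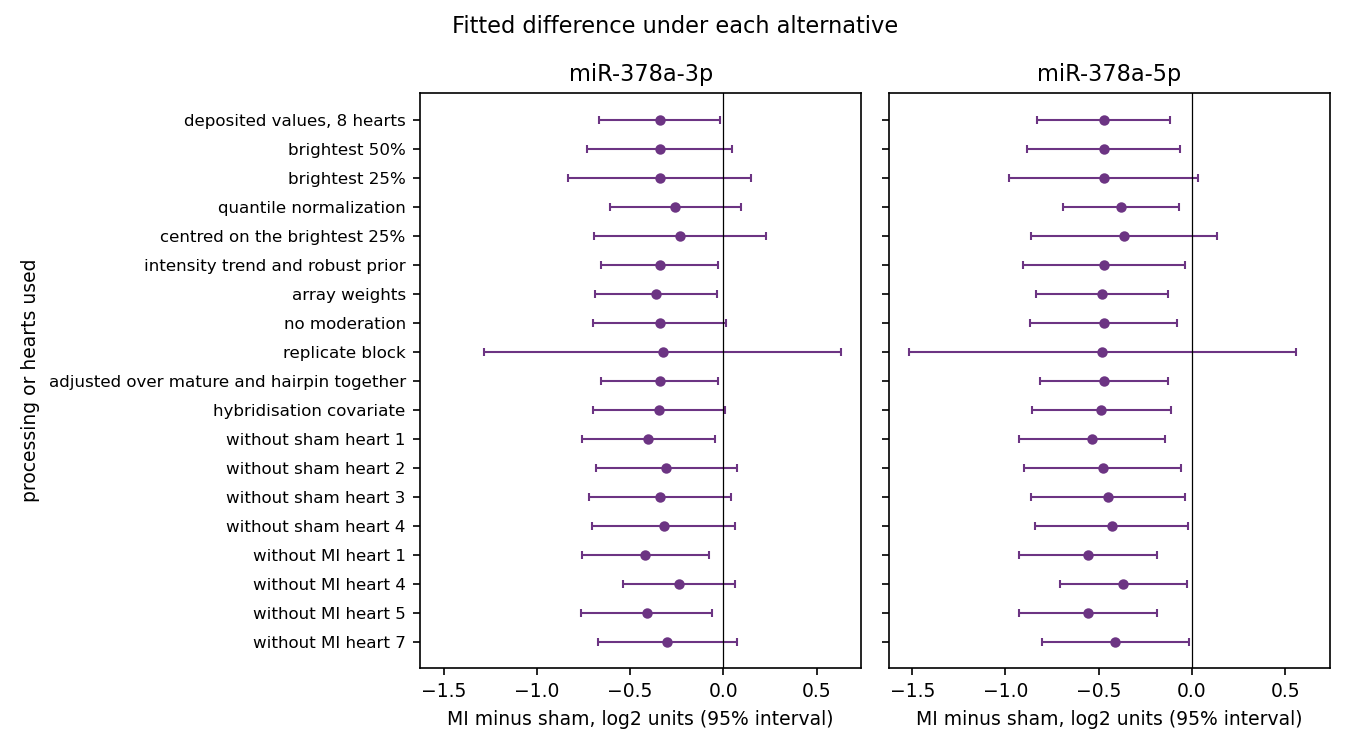
Fitted difference between MI and sham hearts in log2 units (points) with its 95% interval (bars) for each arm, with the deposited values and under each alternative. All points lie below 0, between -0.42 and -0.23 for miR-378a-3p and between -0.56 and -0.36 for miR-378a-5p. Alternatives that change only the probe sets fitted, the variance model or the adjustment keep the point of the deposited values. The interval included 0 under 12 of 18 alternatives for the 3p arm and under 3 of 18 for the 5p arm.

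The arms varied together from heart to heart. In both, MI heart 4 was the lowest of the 8 and MI heart 7 the next, and sham heart 1 was the lowest of its group. Over the 8 hearts Pearson's r between the arms was 0.972 (exact permutation test, p = 0.000744) and Spearman's rho was 0.833 (exact permutation test, p = 0.0154). This was the only relation between measures that was tested. Without MI hearts 4 and 7, the farthest from the median of the 3p arm, r was 0.839 over 6 hearts. After the group mean was subtracted from each value, r was 0.952. Within the 4 sham hearts r was 0.773 and within the 4 MI hearts, which were more spread, it was 0.993, both as descriptions of few points. The points share more than the hairpin, since both arms were read from the same RNA on the same array.

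**Figure D4:**
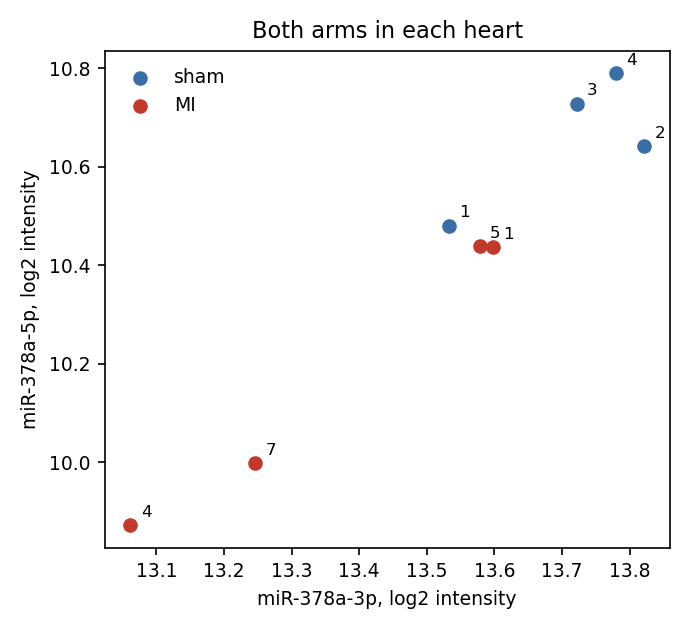
miR-378a-5p against miR-378a-3p, both in log2 intensity, with 1 point per heart (blue sham, red MI, numbers as in the labels). MI hearts 4 and 7 lie apart at the lower left, MI hearts 1 and 5 lie beside sham heart 1, and sham hearts 2, 3 and 4 lie at the upper right.

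The MI hearts were more spread than the sham hearts in both arms. The range was 0.54 log2 units in MI against 0.29 in sham hearts for the 3p arm, and 0.57 against 0.31 for the 5p arm. The SD was 2.05 and 2.20 times as large in MI hearts. With 4 hearts a group this difference in spread was not tested. Among the 271 bright probe sets, the SD was larger in MI hearts in 104, so a wider MI group was not the rule at this level.

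Array-level readings were examined for the low hearts. The bacterial hybridisation controls averaged 11.56 in MI heart 4 and 11.38 in MI heart 7, and 11.35 and 11.66 in MI hearts 1 and 5, so the values of the low hearts lay among those of the other MI hearts. The median of the 271 bright probe sets was 8.09 and 8.05 in MI hearts 4 and 7, and 8.11 and 8.15 in MI hearts 1 and 5. Among the MI hearts this median was thus lower in those with low arms. In sham hearts 1, 2, 3 and 4 it was 7.996, 8.01, 8.11 and 8.12. By this median, sham hearts 1 and 2 therefore lay lower than MI hearts 4 and 7, but they had higher readings in both arms. The median of the brightest 25% of mature probe sets gave another order. It was 5.66 and 5.88 in MI hearts 4 and 7, 5.93 and 5.45 in MI hearts 1 and 5, and 5.91 and 6.02 in sham hearts 1 and 2. The part of these medians in the readings of the arms was not tested. The 5 spike-in controls that read at the top of the scale, from 14.7 to 15.9, differed between groups by -0.02 to 0.12 log2 units. The highest of these differences, in spike_in-control-23_st, had every MI array above every sham array (exact permutation test, p = 0.0286). These controls lie close to the upper end of the scale, above both arms. Their ranges over the 8 arrays were 0.016 to 0.25 log2 units, with the narrowest in spike_in-control-2_st, which read highest. Whether they bear on the readings of the arms was not tested. The extent of the infarct and the part of the heart taken for RNA are not given in the labels used here, and their part in the low readings was not tested.

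Whether the arms changed unequally was examined as the 3p value minus the 5p value within each heart, which removes anything that moves both alike. It was 3.05, 3.18, 2.99 and 2.99 log2 units in sham hearts 1, 2, 3 and 4. In MI hearts 1, 4, 5 and 7 it was 3.16, 3.19, 3.14 and 3.25. The MI values were above 3 of the 4 sham values, while sham heart 2 lay among the MI hearts. Its mean was 3.05 ± 0.09 (SD, n = 4) in the sham group and 3.18 ± 0.05 (SD, n = 4) in the MI group, which is 0.13 higher with a standard error of 0.05 (exact two-sided permutation test, p = 0.0857). The 95% interval of the linear model ran from 0.01 to 0.25. Without sham heart 2 the difference was 0.17 (exact permutation test, p = 0.0286, the smallest that 3 hearts against 4 allow). That heart was the only sham heart among the MI values, so without it the groups could not overlap. Leaving out any other heart gave 0.11 to 0.15 (exact permutation test, p from 0.0857 to 0.114). The difference also passed 0.05 with the hybridisation controls as a covariate, at 0.14 (exact permutation test over the 70 assignments, p = 0.0286), while quantile normalization gave 0.12 (exact permutation test, p = 0.429). An unequal change of the arms was therefore not established, and within this interval it would be at most 0.25 log2 units.

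Among bright probe sets the profile over the 8 hearts was shared with others. Of 268 other distinct bright mature probe sets, 33 had an r over 0.8 with the 3p arm and 33 with the 5p arm, and 12 and 14 had an r over 0.9. The 5p arm ranked 2 among the profiles most like the 3p arm, and the 3p arm ranked 3 among those most like the 5p arm. MIMAT0000159_st came first for both, with r = 0.973 and r = 0.974. It measured 11.91 in sham and 11.33 in MI hearts and so differed by -0.58, standard error 0.20 (limma, adjusted p = 0.544). MIMAT0014944_st was among the 5 most alike for both arms, with r = 0.943 and r = 0.972, and differed by -0.85, standard error 0.28 (limma, adjusted p = 0.520). The 5 most alike of each arm all had lower means in MI hearts, and none passed an adjusted p of 0.05. These correlations are descriptions over 8 arrays that share group and array effects, and the files do not pair these identifiers with miRNA names.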

How the data were processed

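Per the labels' protocols, total RNA from frozen heart tissue was tailed with poly(A) and labelled with biotin. The authors deposited log2 intensities made with RMA (background correction, normalization between arrays and summary of probes), per the submitters' processing notes. The RMA version, detection calls, scan dates and hybridisation batches are not given in the labels used here. The number of arrays limits the precision. Where nothing says how the hearts were handled, p-values set the group difference only against the spread among these arrays.

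All 1908 mature probe sets were fitted with limma 3.58.1 in R 4.3.3 (lmFit, eBayes, two-sided), with group as the only term and no filter on low values. P-values were adjusted by Benjamini-Hochberg over all 1908, threshold 0.05. The fit was tested on simulated data. The simulated noise was independent between probe sets, so that test does not cover variation shared across an array. Single values had exact permutation tests. Members, lists and tests were chosen with earlier results of these data known. The members were named by the rule. The rule for other probe sets took the 5 with the highest Pearson r among those with a mean of 5 or more. Because 0 of 3163 miRNA accessions occur in the reference tables used for names, the hairpin of miR-378a, other miR-378 members, metabolic miRNAs and cell type markers were not analysed here, and the labelled tissue was not checked against markers. Replicate numbers 1 and 4 occur in both groups. Their deviations from the group means, over all 1908 mature probe sets, correlated at -0.29 and -0.04. Most of these probe sets read near the floor and only 2 numbers are shared, so this cannot exclude pairing. Numbers were not treated as pairs in the main fit.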

Additional observations from a re-analysis of the deposited data

How the results depend on the processing

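Both arms had lower means in MI hearts under all 18 alternatives, and neither passed an adjusted p of 0.05 (limma) under any. Restriction to brighter probe sets, no moderation, the trend with a robust prior and adjustment together with hairpins leave the group means untouched. They returned -0.34 and -0.47 again, so their direction was fixed in advance. Apart from leaving out hearts, the 3p difference ran from -0.36 to -0.23 and the 5p difference from -0.49 to -0.36. Leaving out each heart in turn gave -0.42 to -0.24 for the 3p arm (adjusted p from 0.470 to 0.954) and -0.56 to -0.37 for the 5p arm (adjusted p from 0.348 to 0.903), with the smallest differences without MI heart 4. With the replicate number as a block, which leaves 1 residual degree of freedom, the differences were -0.33 and -0.48 (adjusted p = 0.999 for both) and 0 mature probe sets were called. These differences rest only on the hearts numbered 1 and 4, the numbers found in both groups. In the 3p arm MI heart 1 read above sham heart 1 (13.60 against 13.53), and MI heart 4 read below sham heart 4 (13.06 against 13.78). The unequal change of the arms was 0.15 under that block, with no test, and 0.14 with the hybridisation covariate, where it passed (exact permutation test, p = 0.0286). It was 0.11 to 0.17 when each heart was left out (exact permutation test, p from 0.0286 to 0.114), and it passed only without sham heart 2. The count of mature probe sets called was 10 with the deposited values and changed to 25 when arrays were centred on their brightest 25%, to 17 with array weights, and to 18 with a robust prior and an intensity trend. Restriction to the brightest 25% gave 22, and to the brightest 50% gave 20. Leaving out each heart gave 7 to 17. The count of 17 was reached without sham heart 3, and the cause was not tested. The alternatives for the hairpin were not run. Of all these calls, only 1, without sham heart 1, was a lower reading in MI hearts, and it was of neither arm.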
